A study of Mus musculus with 8 samples.

Results

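The 26S proteasome of a mouse Sertoli cell line was followed through the transcripts of its constitutive subunits over 24 h of culture at 39 °C. The genes were chosen by name: every probe set whose single gene symbol in the platform annotation was Psma, Psmb, Psmc or Psmd with a number was taken, and the immunoproteasome genes Psmb8, Psmb9 and Psmb10 were left out. This gave 64 probe sets for 35 genes, of 12393 genes with such a single symbol on the array, and the 35 genes lay on 16 chromosomes. Of these, 53 probe sets for 34 genes were bright enough to be tested.

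The cells were TTE3, a testis line from transgenic mice whose transgene is the large T-antigen of SV40 in a temperature-sensitive form, and Sertoli cells are the somatic cells that nurse developing sperm. All samples were the same line and carried the same transgene, and they differed in the time spent at the temperature the labels call nonpermissive: 0, 6, 12 or 24 h, with 2 samples per time and 1 Affymetrix 430A array per sample. Time in culture, heat and the state of the T-antigen therefore cannot be told apart, and TTE3 stands for 1 line. Separate cultures are not named in the labels for the 2 samples of a time, and the p-values rest on the spread within such pairs, which may be technical. RNA of whole cultures was measured, in which fewer cells with a transcript and less RNA per cell cannot be told apart.

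The proteasome is the protease that degrades most ubiquitin-tagged proteins. Its barrel, the 20S core, is built of outer alpha rings (Psma genes), which gate the entrance, and inner beta rings (Psmb genes), which hold the cutting sites. The 19S particle caps the barrel: a ring of ATPases (Psmc genes) unfolds substrates and feeds them in, and non-ATPase subunits (most Psmd genes) bind ubiquitin chains, remove them and hold the cap together. Psmd5, Psmd9 and Psmd10 encode chaperones that help to assemble the base of the cap and are not part of the finished particle.

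The deposited values were signal intensities in arbitrary units, already scaled so that the mean after trimming 2% at each end was 500.18 to 500.2 units on every array. The 2 arrays of a time correlated across probe sets with r from 0.9815 to 0.9904, and arrays of different times with r from 0.9458 to 0.9786, where probe sets are not independent replicates. Of 20 genes listed as Sertoli markers, 12 were tested, and their list summed to between 28968 and 34638 units per array. Vim, which many cell types express, made up 18196 of the 31804 units at 0 h. At 24 h minus 0 h, 3 of the 12 passed: Clu was higher by 1.44 on the log2 scale (adjusted p = 3.63e-05), Inhbb was higher by 0.51 (0.0188) and Inhba was lower, at a mean of 70.0 units at 24 h and 159 at 0 h (0.0134). Sox9, Wt1, Gata4, Kitl and Clu were among the tested, while Amh, Fshr, Dhh, Cldn11, Rhox5, Gdnf, Shbg and Gata1, which also define Sertoli cells, were too dim to test. None of 6 germ cell markers and none of 4 endothelial markers was tested. The 4 measured Leydig cell markers summed to 287 units at 24 h and 127 at 0 h, all but Star too dim to test, against 2 tested of 4 peritubular and 2 tested of 5 blood cell markers. Most of that rise was Star, with 259 units at 24 h and 105 at 0 h (log2 change 1.18, adjusted p = 0.00327). The part of other cells in the results was not tested.

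After 24 h at 39 °C, transcripts of most proteasome subunits stood below their level at 0 h. Of the 34 tested genes, each represented by its brightest probe set, 27 were lower at 24 h than at 0 h and 0 were higher at an adjusted p below 0.05 in limma's moderated test, adjusted over all 13576 tested probe sets. The median log2 change of the 34 genes was -0.56 at 24 h minus 0 h, between -0.88 and 0.15, while the median of all tested probe sets was 0.016. By probe set, 39 of 53 were lower and 0 higher, against 15.8% of all tested probe sets that were lower and 17.1% that were higher. Both 24 h arrays lay below both 0 h arrays for 32 of the 34 genes, all but Psmd5 and Psmd10, against 34.7% of all tested probe sets.

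**Figure D1:**
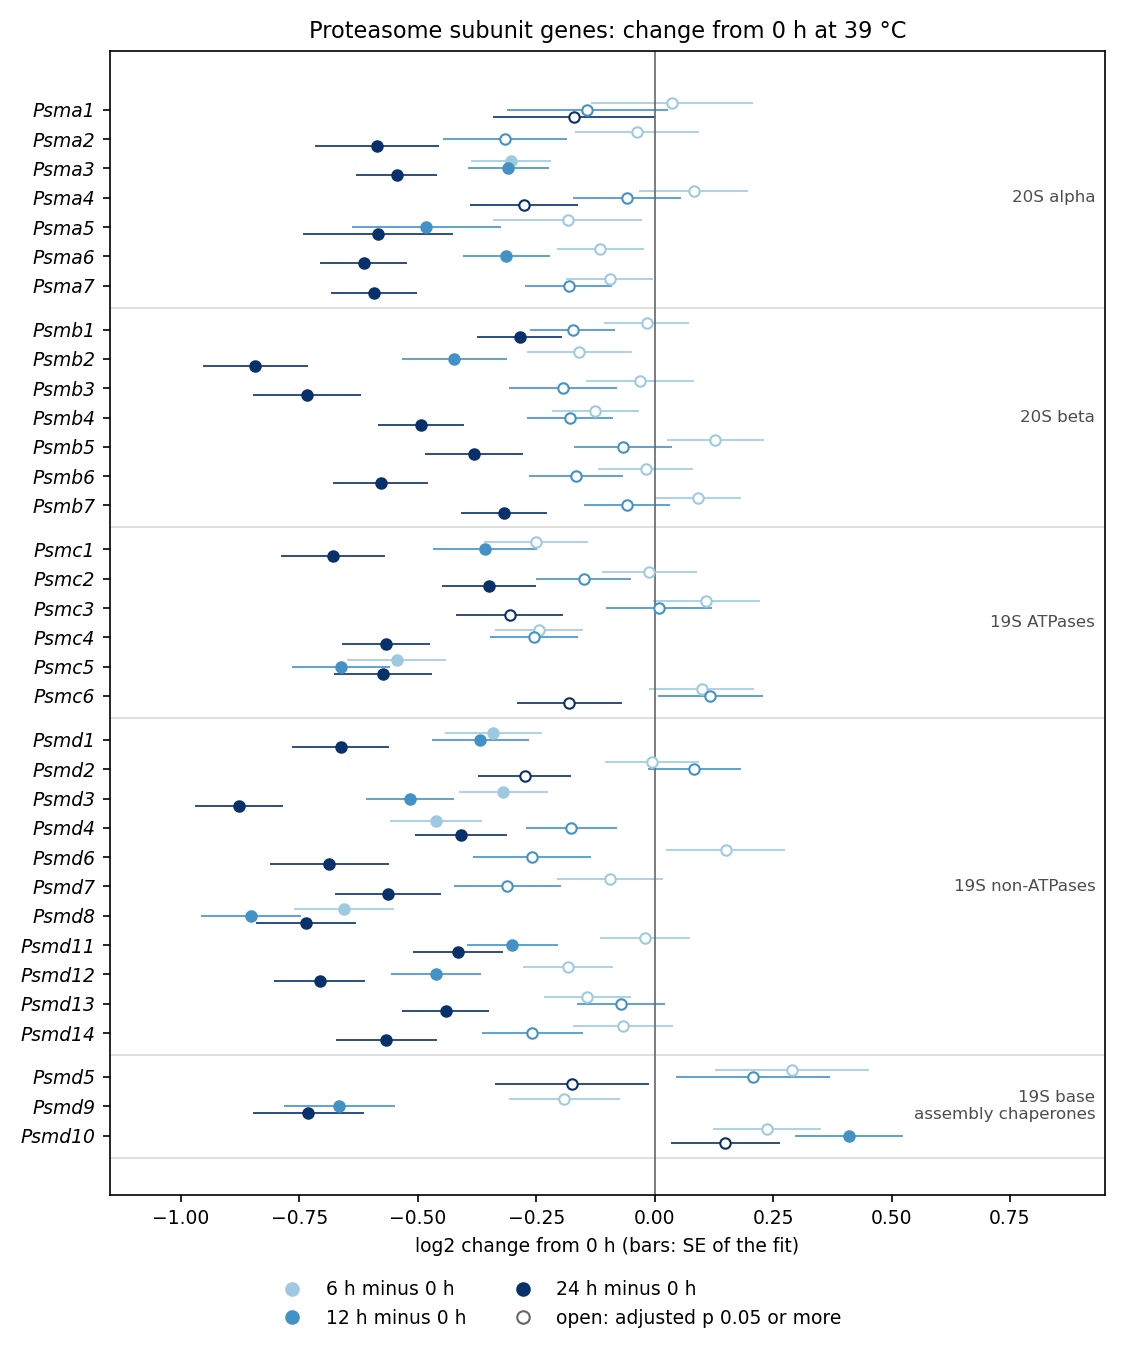
Log2 change of each tested proteasome gene at 6, 12 and 24 h minus 0 h, by its brightest probe set, with bars for 1 standard error of the fit, open points where the adjusted p was 0.05 or more, and genes grouped by their place in the particle. At 24 h all genes but Psmd10 lie left of 0, and 27 of 34 passed the test.

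Fewer genes passed at the earlier times. At 6 h, 6 genes were lower than at 0 h (Psma3, Psmc5, Psmd1, Psmd3, Psmd4 and Psmd8), 0 were higher, and the median of the 34 genes was -0.08; by probe set, 10 of 53 were lower, against 9.33% of all tested, and 0 higher, against 8.65%. At 12 h, 12 genes were lower, Psmd10 was higher, and the median was -0.22. By probe set, 18 of 53 were lower at 12 h than at 0 h, against 11.9% of all tested, and 1 was higher, against 12.1%. Those comparisons share the 0 h arrays, so their errors are not independent. Over the 4 times together, limma's F-test called 40 of 53 probe sets, against 40.1% of all tested, and 28 of 34 genes. Without replicate 2 at 24 h it called 25 of the 53.

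Between neighbouring later times few genes passed. At 12 h minus 6 h, 1 gene was lower (Psmd9) and 0 were higher, against 3.71% lower and 4.61% higher among all tested probe sets, and the Psmd9 call ended in 10 of 17 other settings of the processing. Without replicate 2 at 6 h, 5 genes were lower there. At 24 h minus 12 h, 6 genes were lower (Psma7, Psmb2, Psmb3, Psmb6, Psmd3 and Psmd13) and 0 higher, with a median of -0.30 over the 34 genes. By probe set, 10 of 53 were lower at 24 h than at 12 h, against 3.11% of all tested, and 0 higher, against 3.77%. None of those 6 gene calls held under all 17 other settings. With either 12 h array or either 24 h array left out 0 of the 34 genes passed at 24 h minus 12 h, without either 0 h array 1 did, and without either 6 h array 15 did. At 24 h minus 6 h, 24 genes were lower and 0 higher; by probe set, 29 were lower, against 11.3% of all tested, and 1 higher, against 13.6%. The 24 lower genes became 10 without replicate 1 and 12 without replicate 2 at 24 h. The mean log2 signal was lower at each time than at the one before for 20 of the 34 genes, against 8.44% of all tested probe sets.

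All tested proteasome genes were bright, since the dimmest, Psmd10, had a mean log2 signal of 9.57 when the limit for testing was 6.58. Among the 4639 tested probe sets at least that bright, a limit chosen after the values were seen, 23.9% were lower and 19.2% higher at 24 h than at 0 h, and their median log2 change was -0.05. At 12 h minus 0 h 15.2% of them were lower, and at 6 h minus 0 h 11.4%. No share among bright probe sets was computed for the F-test, the separation of 24 h from 0 h arrays or the stepwise fall. Those counts, and the counts by gene group below, stand against all tested probe sets, dim ones included.

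Array by array, the median log2 signal of the 34 genes relative to their 0 h mean was 0.01 and -0.01 at 0 h, -0.03 and -0.12 at 6 h, -0.24 and -0.21 at 12 h, and -0.50 and -0.55 at 24 h. The same median over all tested probe sets stayed between -0.01 and 0.02 on the 8 arrays. The 2 proteasome medians of each time overlapped those of no other time. At 6 h, the one of -0.03 lay close to those at 0 h. The 0 h pair mirrors itself around 0 because it is measured against its own mean. With each array left out in turn, 21 to 30 genes were lower at 24 h than at 0 h. At 12 h the count was less stable, falling to 5 without replicate 1 at 0 h, 4 without replicate 2 at 0 h and 6 without either 12 h array. At 6 h it fell to 1 without replicate 1 at 0 h and to 3 without replicate 2 at 0 h or without either 24 h array.

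**Figure D2:**
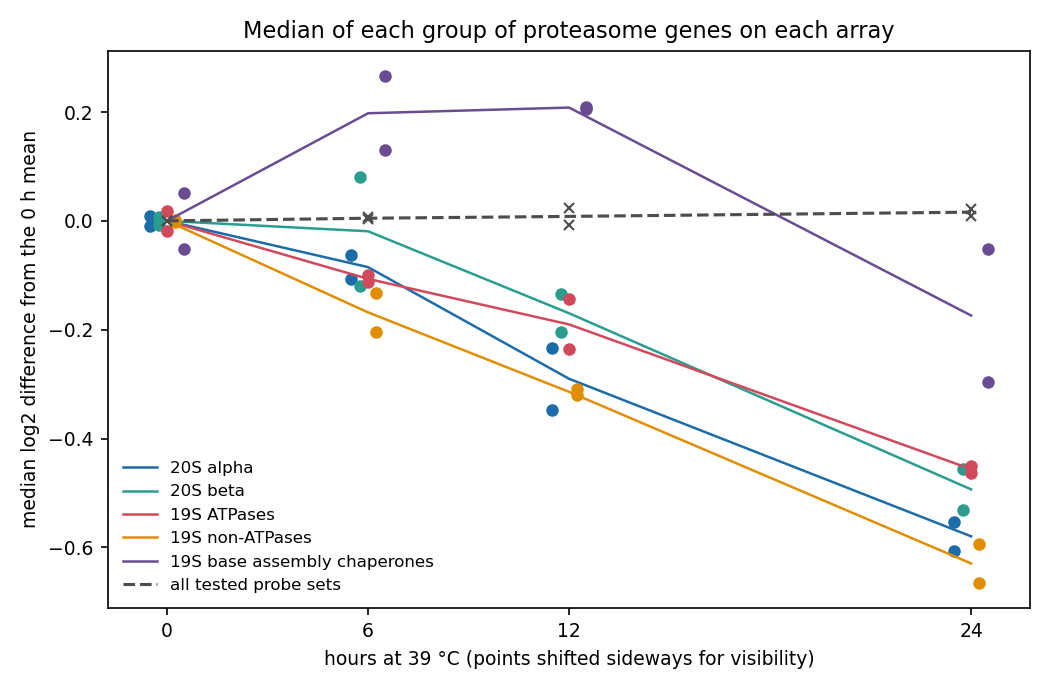
Median log2 signal of each proteasome gene group on each array, relative to the mean of each gene at 0 h, against hours at 39 °C, with 1 point per array, lines through the means and a dashed line for all tested probe sets. Alpha, beta, ATPase and non-ATPase genes all lie lowest at 24 h, and the median of the 3 chaperone genes lies above 0 at 6 h and 12 h.

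Of the 7 alpha ring genes tested, 5 were lower at 24 h than at 0 h (Psma2, Psma3, Psma5, Psma6 and Psma7), with a median log2 change of -0.58 over the 7, and all 7 had both 24 h arrays below both 0 h arrays. Of all tested probe sets, 15.8% were lower and 34.7% had both 24 h arrays below both 0 h arrays. Psma8, which encodes the alpha subunit of the germ cell proteasome of the testis, was too dim to test. It had 41.6 and 5 units at 0 h, 25.2 and 9.4 at 6 h, 14.7 and 7.8 at 12 h, and 3.5 and 3.9 at 24 h. The 0 h and 6 h pairs were wide apart and overlapped, and no change was read from signals so dim. Psma7 had a log2 change of -0.59 at 24 h minus 0 h that held in all 17 other settings of the processing, and Psma2 had -0.59, a call that ended without replicate 1 at 0 h (0.0561).

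Psma6, an alpha ring subunit, had 5553 and 5628 units at 0 h, 4875 and 5464 at 6 h, 4389 and 4606 at 12 h, and 3594 and 3695 at 24 h. The mean was lower at each time than at the one before, and no array at 12 h or 24 h reached an array at 0 h. The log2 change was -0.31 ± 0.09, adjusted p = 0.0298, at 12 h minus 0 h and -0.61 ± 0.09, adjusted p = 0.000471, at 24 h minus 0 h, a 24 h level 1.53-fold below that at 0 h. The 12 h call ended with any of the 0 h, 12 h or 24 h arrays left out (adjusted p from 0.0534 to 0.158), while the 24 h call held in all 17 settings. Psma3, whose product sits in the same ring, had 6093 and 6229.5 units at 0 h, 4985 and 4992 at 6 h, 4888 and 5048 at 12 h, and 4325 and 4110.4 at 24 h. All later arrays lay below those at 0 h, the 6 h and 12 h arrays overlapped, and the 24 h arrays were lowest. Its log2 change was -0.30 ± 0.09, adjusted p = 0.031, at 6 h minus 0 h and -0.54 ± 0.09, adjusted p = 0.000655, at 24 h minus 0 h, and the 6 h call ended in 7 of the 17 settings, among them without replicate 1 (0.15) or 2 (0.18) at 0 h and without either 24 h array.

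Psma5, another subunit of the ring, had 3039 and 3238 units at 0 h, 2243 and 3394 at 6 h, 2118 and 2367 at 12 h, and 2040.3 and 2132 at 24 h. The second array at 6 h was the highest of the 8 and the first one was near the 12 h level, so 6 h spans most of the range. The log2 change at 24 h minus 0 h was -0.58 ± 0.16, adjusted p = 0.0148, and the call ended when any of the 0 h or 24 h arrays was left out (adjusted p from 0.0599 to 0.0955). Psma4, also of the alpha ring, had 4188 and 4179.7 units at 0 h, 4903 and 4003 at 6 h, 4346 and 3713 at 12 h, and 3479 and 3427 at 24 h. Its 24 h arrays were the lowest of the 8, but the change of -0.28 ± 0.11, adjusted p = 0.0883, did not pass. Psma1, of the same ring, had 3394 and 3712 units at 0 h, 3295 and 4023 at 6 h, 2600.3 and 3973 at 12 h, and 2978 and 3337 at 24 h. The first arrays at 12 h and 24 h were the lowest, the 6 h and 12 h pairs were wide apart, and the change at 24 h minus 0 h was -0.17 ± 0.17, adjusted p = 0.488.

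The beta ring genes were all lower at 24 h: 7 of 7 passed, with a median log2 change of -0.49 at 24 h minus 0 h, between -0.84 and -0.28. At 6 h minus 0 h 0 of 7 passed, and at 12 h minus 0 h 1 of 7 did. Of all tested probe sets, 9.33% were lower at 6 h, 11.9% at 12 h and 15.8% at 24 h, each minus 0 h. The 12 h count is near that share. Psmb5, Psmb6 and Psmb7 encode the 3 catalytic subunits of the constitutive core, and the other 4 genes encode beta subunits that do not cut. Of these 4, Psmb3 and Psmb4 had log2 changes of -0.73 and -0.49 at 24 h minus 0 h, and both calls held in all 17 settings.

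Psmb5, which carries the chymotrypsin-like site, had 2603 and 2816 units at 0 h, 3155 and 2778 at 6 h, 2466 and 2706 at 12 h, and 2139.6 and 2008 at 24 h. Both 24 h arrays were below the other 6, and the 6 h and 12 h arrays overlapped those at 0 h. The log2 change at 24 h minus 0 h was -0.38 ± 0.10, adjusted p = 0.0149, and the call ended without replicate 2 at 0 h (0.125) or replicate 2 at 24 h (0.111). Psmb6, with the caspase-like site, had 6316 and 5973 units at 0 h, 6500.4 and 5651 at 6 h, 5752 and 5205 at 12 h, and 4051 and 4162 at 24 h. Both 12 h arrays lay below both 0 h arrays without passing the test, and the 24 h arrays were lowest, at 1.49-fold below 0 h. Its log2 change was -0.58 ± 0.10, adjusted p = 0.00121, at 24 h minus 0 h, and it passed in all 17 settings. Psmb7, with the trypsin-like site, had 8765 and 8196 units at 0 h, 9277 and 8784 at 6 h, 8436 and 7858 at 12 h, and 6613 and 6982 at 24 h. The 24 h arrays were the lowest, and the 12 h arrays overlapped those at 0 h. Its log2 change at 24 h minus 0 h, -0.32 ± 0.09, adjusted p = 0.0199, did not pass without replicate 1 (0.166) or 2 (0.0652) at 0 h, nor without replicate 1 (0.136) or 2 (0.0657) at 24 h, without the variance trend (0.0618) or without the filter (0.0516).

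Psmb2, a beta subunit without a cutting site, had 3802 and 4047 units at 0 h, 3865 and 3189 at 6 h, 2912 and 2928 at 12 h, and 2310.0 and 2051 at 24 h. It fell furthest of the beta genes, and its 12 h arrays were already below both 0 h arrays. The log2 change was -0.42 ± 0.11, adjusted p = 0.0176, at 12 h minus 0 h and -0.84 ± 0.11, adjusted p = 0.000203, at 24 h minus 0 h, which put the 24 h level 1.79-fold below that at 0 h. The 12 h call ended with any of the 0 h or 12 h arrays left out (adjusted p from 0.0704 to 0.131) or without the variance trend (0.0554). Psmb1, also without a cutting site, had 4706 and 4654 units at 0 h, 4581 and 4669.7 at 6 h, 4259.5 and 4040.1 at 12 h, and 4013 and 3669 at 24 h. The 12 h and 24 h arrays lay below the others, and the change at 24 h minus 0 h, -0.28 ± 0.09, adjusted p = 0.0304, was the smallest that passed. That call ended when any of the 0 h or 24 h arrays was left out (adjusted p from 0.0596 to 0.219) or without the variance trend (0.0807).

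**Figure D3:**
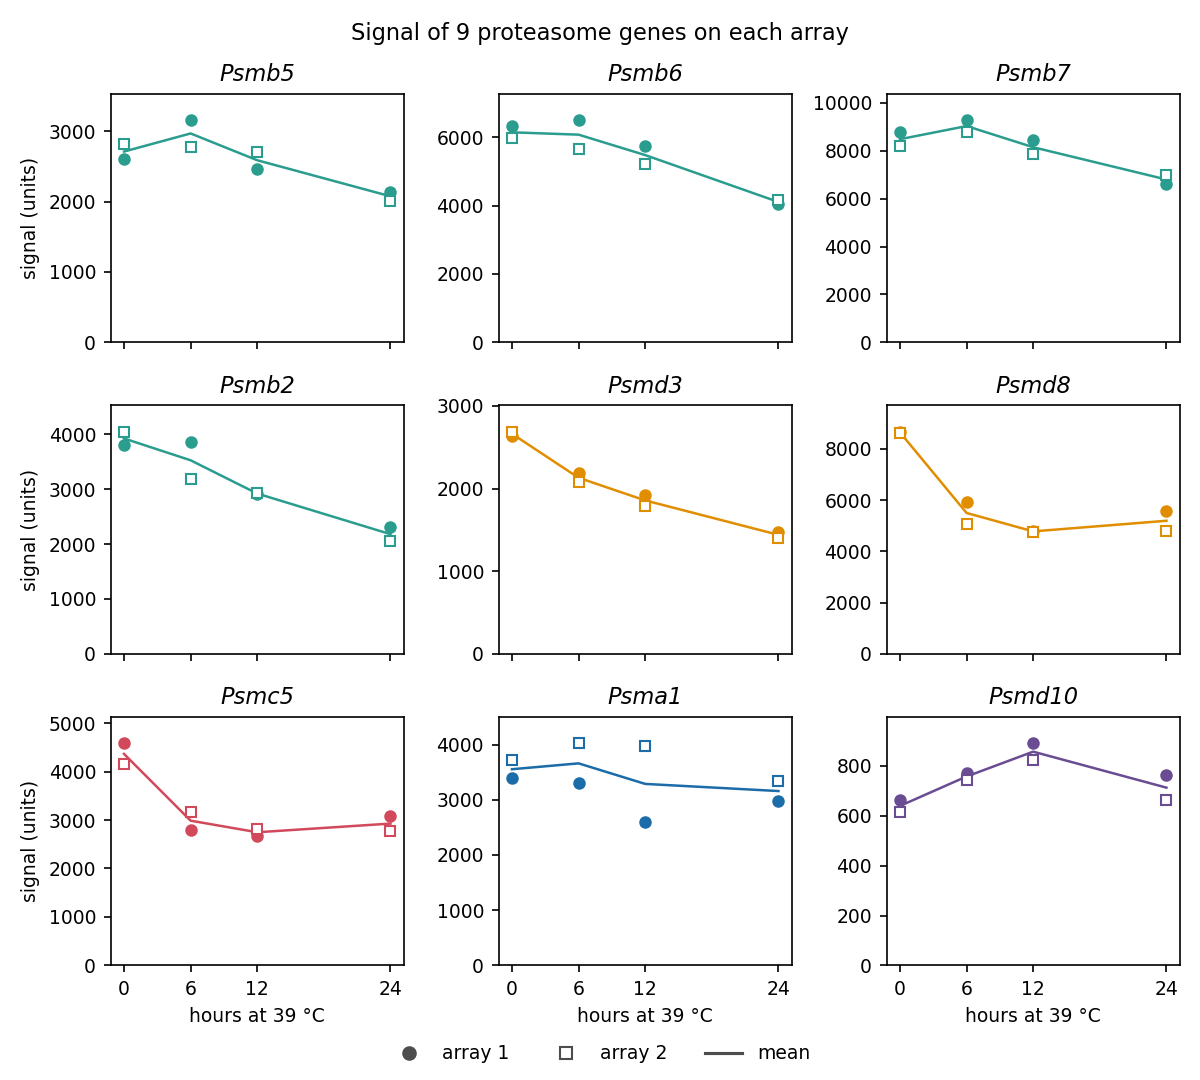
Signal of 9 proteasome genes on the 8 arrays against hours at 39 °C, with filled circles for replicate 1, open squares for replicate 2, a line through the means and each panel on its own axis. Psmb5, Psmb6 and Psmb7 are lowest at 24 h, Psmd8 and Psmc5 are already low at 6 h, and Psmd10 peaks at 12 h.

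In the cell, NFE2L1 raises proteasome genes when the protease is impaired, through antioxidant response elements in their promoters. RefSeq promoters of assembly GRCm38.p6, from 250 bases before to 50 after the start, were held for 28 of the 35 genes, as 30 promoters. Psma8, Psmb1, Psmb2, Psmb7, Psmc3, Psmd3 and Psmd7 had no entry. The promoters of Psmb5, Psmb6 and Psmd8 are shown because these genes fell at different times: Psmb5 and Psmb6 passed the test against 0 h at 24 h alone, and Psmd8 at every later time. The core of the antioxidant response element, TGACNNNGC on either strand, is in capitals.
Psmb5 promoter, chr14:54617946-54618245, minus strand: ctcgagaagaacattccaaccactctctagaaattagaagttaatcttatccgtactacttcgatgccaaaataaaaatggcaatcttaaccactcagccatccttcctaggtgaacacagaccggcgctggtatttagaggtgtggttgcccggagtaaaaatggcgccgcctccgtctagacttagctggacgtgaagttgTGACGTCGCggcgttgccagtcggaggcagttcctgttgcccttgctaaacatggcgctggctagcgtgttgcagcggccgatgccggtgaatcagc
Psmb6 promoter, chr11:70525107-70525406, plus strand: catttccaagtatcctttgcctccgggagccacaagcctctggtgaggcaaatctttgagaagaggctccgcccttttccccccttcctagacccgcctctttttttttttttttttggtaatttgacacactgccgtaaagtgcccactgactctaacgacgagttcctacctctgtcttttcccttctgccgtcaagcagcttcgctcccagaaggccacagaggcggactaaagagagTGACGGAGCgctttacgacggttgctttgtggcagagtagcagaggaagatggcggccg
Psmd8 promoter, chr7:29180624-29180923, minus strand: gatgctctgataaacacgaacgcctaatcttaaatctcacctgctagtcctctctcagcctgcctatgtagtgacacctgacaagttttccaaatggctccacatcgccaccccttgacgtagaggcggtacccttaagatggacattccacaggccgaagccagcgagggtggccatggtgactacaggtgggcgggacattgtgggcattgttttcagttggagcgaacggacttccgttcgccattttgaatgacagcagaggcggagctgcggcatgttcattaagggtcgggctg

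Counting back from -1 for the base before the start, the match spans bases -47 to -39 in Psmb5 and -9 to -1 in Psmb6, and the Psmd8 window holds none. In all, 5 of the 30 proteasome promoters held TGACNNNGC (Psmb5, Psmb6, Psmc6, Psmd12 and Psmd9), or 16.7%, against 12.4% of 32851 promoters. Of those 5 genes, 4 were lower at 24 h than at 0 h and Psmc6 did not pass, against 27 lower of all 34 tested proteasome genes. Of the genes with a match, Psmd12 and Psmd9 already passed at 12 h minus 0 h (adjusted p = 0.00546 and 0.00212). Psmb5 and Psmb6, also with a match, passed against 0 h at 24 h alone. By their brightest probe sets, some genes without a match, such as Psmb3 and Psmb4, passed against 0 h at 24 h alone. Others without a match, such as Psma6, Psmc1 and Psmd8, already passed at 12 h. The second probe set of Psmb4 also passed at 12 h minus 0 h (adjusted p = 0.0116). A link between the motif and the time of the fall was not tested. The core of the heat shock element, GAANNTTC, occurred in 1 of the 30 (Psmb5, bases -242 to -235), or 3.33%, against 7.86% of all. CCAAT, bound by NF-Y, occurred in 11 of the 30, or 36.7%, against 37.4%, and the E box CACGTG in 2 (Psma4 and Psmd9), or 6.67%, against 7.15%. Both strands were searched, the 4 motifs did not overlap in the windows shown, and a match in these letters says nothing about binding.

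The ATPase genes did not keep one time course. Of 6, 4 were lower at 24 h than at 0 h (Psmc1, Psmc2, Psmc4 and Psmc5) and 0 higher, with a median log2 change of -0.46, and all 6 had both 24 h arrays below both 0 h arrays. At 6 h minus 0 h 1 of 6 passed, and at 12 h minus 0 h 2 of 6. Of all tested probe sets, 9.33% were lower at 6 h, 11.9% at 12 h and 15.8% at 24 h, each minus 0 h. Both 24 h arrays lay below both 0 h arrays for 34.7% of them. The 6 h count is 1 gene, too few to set apart from that share. Psmc2 had a log2 change of -0.35 at 24 h minus 0 h, a call that ended without replicate 1 (0.104) or 2 (0.108) at 0 h, without replicate 1 at 24 h (0.165) or without the variance trend (0.0611).

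Psmc5, an ATPase of the unfolding ring, had 4583 and 4146 units at 0 h, 2804 and 3169 at 6 h, 2671 and 2824 at 12 h, and 3079.8 and 2774 at 24 h. All 6 later arrays lay below both 0 h arrays and overlapped among themselves. Its log2 change was -0.54 ± 0.10, adjusted p = 0.00512, at 6 h minus 0 h, -0.66 ± 0.10 at 12 h minus 0 h and -0.57 ± 0.10 at 24 h minus 0 h. The 6 h call ended without replicate 1 at 0 h (0.0715), and the later calls held in all 17 settings. Psmc1, of the same ring, had 2223 and 2197 units at 0 h, 1934 and 1779 at 6 h, 1899.7 and 1556 at 12 h, and 1376 and 1369 at 24 h. It was lower on every later array, with the 24 h pair lowest. The log2 change was -0.68 ± 0.11, adjusted p = 0.000821, at 24 h minus 0 h, and -0.36 ± 0.11, adjusted p = 0.0363, at 12 h minus 0 h. That 12 h call ended in 7 of the 17 settings, among them without either 0 h array, replicate 2 at 12 h or either 24 h array (adjusted p from 0.0598 to 0.247).

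Psmc3, another ATPase of the ring, had 2942 and 2829.8 units at 0 h, 3434 and 2822 at 6 h, 2712 and 3108 at 12 h, and 2320.5 and 2338 at 24 h. The 24 h arrays were the lowest of the 8, but the change of -0.31 ± 0.11, adjusted p = 0.0569, did not pass. Psmc6 had 2102 and 2319.5 units at 0 h, 2331 and 2404 at 6 h, 2579 and 2228 at 12 h, and 1815 and 2087 at 24 h. Its 24 h arrays lay just under those at 0 h, and the log2 change was -0.18 ± 0.11, adjusted p = 0.246. Neither of these ATPase genes had a mean below that of 0 h at 6 h or 12 h.

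Psmc4 gave different time courses by probe set. Its brightest probe set had 2777 and 2588 units at 0 h, 2185 and 2339.7 at 6 h, 2232 and 2257 at 12 h, and 1844 and 1763 at 24 h. These arrays ran down to 24 h, and the log2 change was -0.57 ± 0.09, adjusted p = 0.000872, at 24 h minus 0 h and -0.32 ± 0.09, adjusted p = 0.0263, at 24 h minus 6 h. The second probe set, one that can bind several transcripts of the gene, had 1967 and 2664 units at 0 h, 883 and 1048 at 6 h, 948 and 890.0 at 12 h, and 1656 and 1192 at 24 h. It was lowest at 6 h and 12 h and partly back at 24 h, with log2 changes of -1.23 ± 0.17, adjusted p = 0.000936, at 6 h minus 0 h and -0.70 ± 0.17, adjusted p = 0.00947, at 24 h minus 0 h. At 24 h minus 6 h it was higher, 0.54 ± 0.17, adjusted p = 0.0411, the opposite of the brightest probe set. That rise ended in 8 of the 17 settings, among them without replicate 1 at 24 h (0.324), replicate 1 at 6 h (0.176) or either 12 h array (0.0525). The fall of the brightest one at 24 h minus 6 h ended in 5, among them without replicate 1 (0.091) or 2 (0.155) at 24 h and without replicate 2 at 6 h (0.0573). The 24 h minus 0 h call of the second probe set ended without replicate 2 at 0 h (0.112) or at 24 h (0.108).

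**Figure D4:**
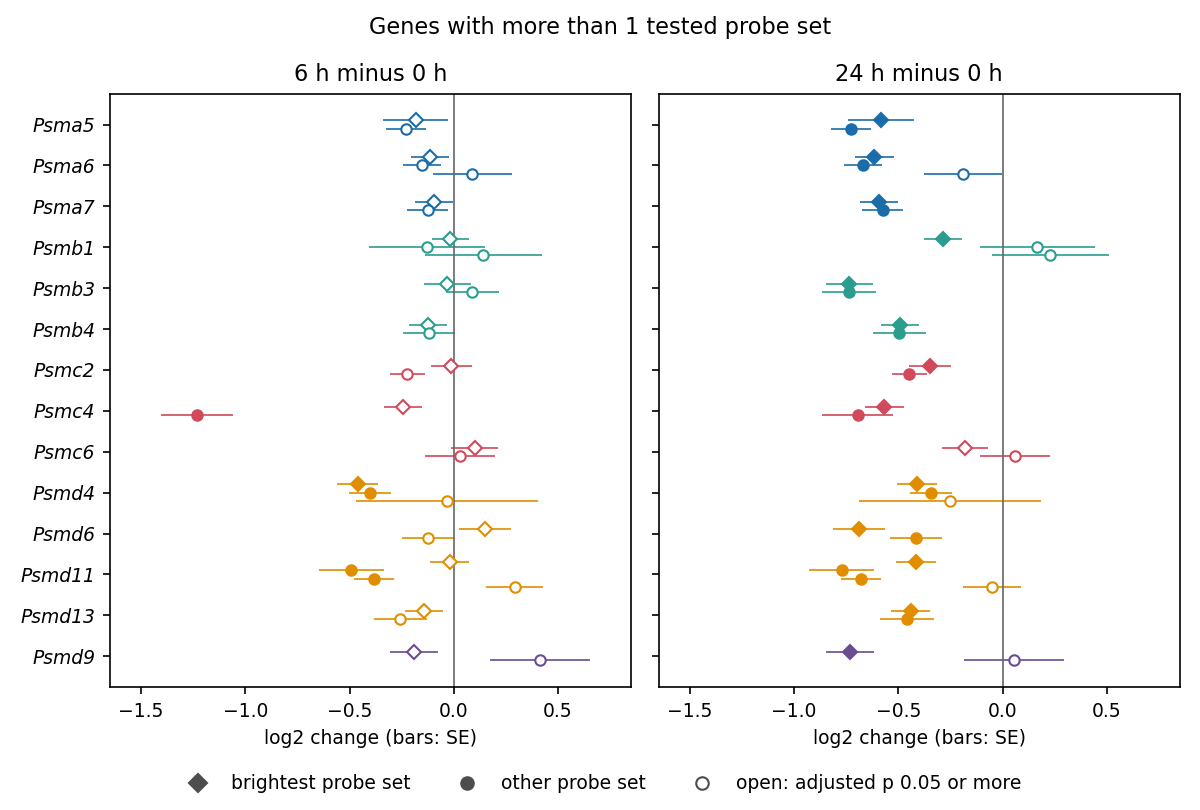
Log2 change of every tested probe set of the 14 proteasome genes with several tested, at 6 h and at 24 h minus 0 h, with diamonds for the brightest of each gene, circles for the others, open points where the adjusted p was 0.05 or more, and bars for 1 standard error. The probe sets of Psmc4 and Psmd11 lie far apart at 6 h, and open points of Psmb1, Psmc6 and Psmd9 lie right of 0 at 24 h.

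Other genes also had probe sets that differed from the brightest, some of them dim and some bright. For Psmb1, 2 dim ones had log2 changes of 0.17 and 0.23 at 24 h minus 0 h and did not pass. A dim one had a change of 0.06 for Psmd9 and of -0.19 for Psma6, and the second one of Psmc6 had 0.06, none of them passing. The second one of Psmb4, with a mean of 2994 units at 0 h, was already lower at 12 h (-0.53 ± 0.13, adjusted p = 0.0116, against -0.18 ± 0.09 for the brightest), a call that ended without either 0 h array (0.0938 and 0.0565) or replicate 2 at 12 h (0.0997). The second one of Psmd6 had -0.40 ± 0.12, adjusted p = 0.0372, at 12 h minus 0 h, a call that ended with any of the 0 h, 12 h or 24 h arrays left out (adjusted p from 0.0598 to 0.161). For Psma7, the second one was lower at 12 h minus 0 h (-0.37, adjusted p = 0.0192), unlike the brightest (0.177). That of Psma5 did not pass there (0.0543), unlike the brightest (0.0452). At 24 h minus 12 h it did (-0.45, adjusted p = 0.0212), as did a bright one of Psma6 (-0.37, 0.0338), and neither brightest did. How these calls fared in other settings is not given here.

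Psmd11, which encodes a lid subunit, had 6 probe sets, 4 of them tested, and 3 of these were lower at 24 h than at 0 h, with log2 changes of -0.41, -0.77 and -0.68, while the other tested one was not (-0.05 ± 0.14, adjusted p = 0.814). The call of the brightest ended without replicate 2 at 0 h (0.0889), and those of the other 2 held in all 17 settings. At 6 h minus 0 h, where the brightest had -0.02 ± 0.10, those 2 were lower (-0.49 ± 0.15, adjusted p = 0.0491, and -0.38 ± 0.10, adjusted p = 0.0175), and the fourth had 0.29 ± 0.14, adjusted p = 0.172. Psmd11 is therefore not among the 6 genes counted as lower at 6 h, although 2 of its probe sets passed there. Both 6 h calls ended without replicate 1 (0.292 and 0.089) or 2 (0.0949 and 0.138) at 0 h or replicate 1 at 6 h (0.0501 and 0.0501), and the first of them also without replicate 2 at 6 h (0.147) or either 24 h array (0.0722). Of the 11 untested probe sets, none had a mean above 86.4 units at any time.

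Of the 11 non-ATPase genes of the 19S cap, 10 were lower at 24 h than at 0 h, all but Psmd2, with a median log2 change of -0.57, and all 11 passed the F-test over the 4 times. At 6 h minus 0 h 4 of 11 were lower (Psmd1, Psmd3, Psmd4 and Psmd8), and at 12 h minus 0 h 5 of 11. Of all tested probe sets, 9.33% were lower at 6 h, 11.9% at 12 h and 15.8% at 24 h, each minus 0 h. The F-test called 40.1% of them. Psmd1, a scaffold of the base, had a log2 change of -0.66 at 24 h minus 0 h. The lid genes Psmd7, Psmd12 and Psmd13 had -0.56, -0.71 and -0.44, and these 4 calls held in all 17 settings. The 6 h call of Psmd1 held in 7 of the 17 settings and ended without replicate 1 at 0 h (0.297), among others, and that of Psmd4 ended without the same array (0.0999). Psmd4, a receptor for ubiquitin chains, changed by -0.41 ± 0.10 at 24 h minus 0 h, with the call lost without replicate 1 at 0 h (0.0929) or replicate 2 at 24 h (0.0823). Psmd14, the enzyme that cuts ubiquitin chains off substrates, changed by -0.57 ± 0.11, adjusted p = 0.002, at 24 h minus 0 h and passed in all 17 settings.

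Psmd3, a subunit of the lid of the cap, had 2638 and 2688 units at 0 h, 2186 and 2075 at 6 h, 1925 and 1788 at 12 h, and 1472 and 1407 at 24 h. Each time stood below the one before with no overlap between the pairs. Its change of -0.88 ± 0.09, adjusted p = 4.82e-05, at 24 h minus 0 h, a level 1.84-fold lower, was the largest of the 34 genes. It was also lower at 6 h (-0.32 ± 0.09, adjusted p = 0.0359) and 12 h (-0.52 ± 0.09, adjusted p = 0.00248), where the 6 h call ended in 7 of the 17 settings, among them without either 0 h array, replicate 2 at 6 h or either 24 h array (adjusted p from 0.0609 to 0.183).

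Psmd8, another lid subunit, had 8666 and 8619 units at 0 h, 5909 and 5085 at 6 h, 4812 and 4744 at 12 h, and 5591 and 4793 at 24 h. All 6 later arrays lay far below both 0 h arrays, and the 24 h arrays overlapped those at 6 h and at 12 h. Its log2 change was -0.65 ± 0.11, adjusted p = 0.00208, at 6 h minus 0 h, -0.85 ± 0.11, adjusted p = 0.000288, at 12 h minus 0 h and -0.74 ± 0.11, adjusted p = 0.000357, at 24 h minus 0 h, which puts the level 1.57-fold lower at 6 h, 1.81-fold at 12 h and 1.67-fold at 24 h. All 3 of these calls held in all 17 settings, and Psmd8 was the one gene whose 6 h call did.

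Psmd6, also of the lid, had 3182 and 3193 units at 0 h, 4059.6 and 3084 at 6 h, 2825 and 2503 at 12 h, and 1959 and 1986 at 24 h. The first 6 h array was the highest of the 8 and both 24 h arrays were the lowest. The change of -0.69 ± 0.12, adjusted p = 0.00165, at 24 h minus 0 h passed in all 17 settings, and 6 h and 12 h did not pass. Psmd2, the large scaffold of the base, had 5862 and 5003 units at 0 h, 5329 and 5467 at 6 h, 5727 and 5758 at 12 h, and 4311 and 4642 at 24 h. Its 24 h arrays lay below the others, but the change of -0.27 ± 0.10, adjusted p = 0.0528, did not pass.

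The 3 chaperones of the cap did not share one course. Psmd9 had 1034 and 999 units at 0 h, 951 and 828 at 6 h, 669.7 and 598 at 12 h, and 576 and 633 at 24 h. The 12 h and 24 h arrays were far below those at 0 h and overlapped with each other. The log2 change was -0.67 ± 0.12, adjusted p = 0.00212, at 12 h minus 0 h and -0.73 ± 0.12, adjusted p = 0.000753, at 24 h minus 0 h, and both calls held in all 17 settings.

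Psmd10, also called gankyrin, was the only proteasome gene called higher in any of these comparisons of brightest probe sets. It had 663 and 615 units at 0 h, 773 and 742 at 6 h, 890.3 and 823 at 12 h, and 763 and 662 at 24 h. Both 12 h arrays were above all the others, and the 24 h arrays overlapped those at 6 h. The change of 0.41 ± 0.11, adjusted p = 0.0238, at 12 h minus 0 h did not pass without replicate 1 (0.0793) or 2 (0.158) at 0 h, without replicate 1 (0.119) or 2 (0.053) at 12 h, or with arrays centred on their medians (0.0644). At 24 h minus 0 h it was 0.15 ± 0.11, adjusted p = 0.356. Psmd5 had 1379 and 978 units at 0 h, 1594 and 1273 at 6 h, 1347 and 1343 at 12 h, and 1120.1 and 942 at 24 h. The 0 h pair was far apart and overlapped every later time, and the change at 24 h minus 0 h was -0.17 ± 0.16, adjusted p = 0.453.

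Related genes outside the naming rule, among them that of the lid subunit Sem1, were taken from lists drawn up with earlier results of these data known. Of these lists, Psme2, Adrm1, Paaf1, Ddi2, Faf2 and the genes of ubiquitin and its activating enzymes were not analysed here. The counts of these lists at 24 h minus 0 h stand against the 17.1% of all tested probe sets that were higher and the 15.8% that were lower, and the lists are short. The immunoproteasome genes Psmb8 and Psmb9, which replace catalytic subunits under interferon, were too dim to test. Psmb10, the third of them, had 421 and 448 units at 0 h, 482 and 429 at 6 h, 490.2 and 473 at 12 h, and 523 and 520.1 at 24 h. The 24 h arrays were the highest, but the change of 0.25 ± 0.12, adjusted p = 0.125, did not pass.

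Of the activators and inhibitor of the core, 1 of 4 was higher at 24 h than at 0 h (Psme1) and 3 were lower (Psme3, Psme4 and Psmf1), against 17.1% and 15.8% of all tested. Psme1, a subunit of the interferon-induced activator ring, had 1339 and 1287 units at 0 h, 1328 and 1263 at 6 h, 1608 and 1331 at 12 h, and 1993 and 1800.5 at 24 h. Both 24 h arrays lay above the other 6. Its log2 change was 0.52 ± 0.11, adjusted p = 0.00462, at 24 h minus 0 h, and the call ended without replicate 1 at 24 h (0.0531). Psme3, whose product forms the activator ring of the nucleus, had 1172 and 1172 units at 0 h, 1174 and 1082 at 6 h, 1031 and 1121 at 12 h, and 811 and 885 at 24 h. Its 24 h arrays were lowest, with a change of -0.46 ± 0.10, adjusted p = 0.00626, and the call ended without replicate 1 at 24 h (0.0643). The calls of Psme4 and Psmf1 also ended without 1 array or another (adjusted p from 0.0527 to 0.233).

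Among 6 genes for the assembly of the core or its import into the nucleus, 0 were higher and 3 lower at 24 h than at 0 h (Akirin2, Psmg4 and Psmg1). Pomp, a maturation factor of the core, had 3991 and 3652 units at 0 h, 3605 and 4033 at 6 h, 4463 and 3870.1 at 12 h, and 3329 and 3289.7 at 24 h. Its 24 h arrays were the lowest, but the change of -0.20 ± 0.10, adjusted p = 0.158, did not pass. Akirin2, which carries proteasomes into the nucleus, had 2412 and 2728 units at 0 h, 2262 and 2309 at 6 h, 1673 and 1753 at 12 h, and 1686 and 1677 at 24 h. It fell by 12 h and stayed there, with a change of -0.60 ± 0.10, adjusted p = 0.00075, at 24 h minus 0 h that held in all 17 settings. Psmg3, which helps to build the alpha ring, had 930.2 and 982 units at 0 h, 1625 and 1362 at 6 h, 1187 and 1197 at 12 h, and 874 and 955 at 24 h. It was higher at 6 h (0.63 ± 0.11, adjusted p = 0.00374) and at 24 h its arrays overlapped those at 0 h (-0.06 ± 0.11, adjusted p = 0.708). The calls of Psmg1 and Psmg4 ended when some single arrays of 0 h or 24 h were left out (adjusted p from 0.0565 to 0.0987).

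Of 7 genes for proteins of the cap or riding on it, 4 were lower at 24 h than at 0 h (Ecpas, Usp14, Uchl5 and Ube3c) and 0 were higher. Ecpas, an adaptor that binds the proteasome, had 660.2 and 703 units at 0 h, 494 and 409 at 6 h, 458 and 549 at 12 h, and 364 and 376 at 24 h. All later arrays lay below those at 0 h, and the change at 24 h minus 0 h was -0.84 ± 0.14, adjusted p = 0.000772. Sem1, a small lid subunit with another style of name, had 3409.6 and 3533 units at 0 h, 3942 and 4254 at 6 h, 3788 and 3372 at 12 h, and 4044 and 4209 at 24 h. It was above both 0 h arrays on 5 of the 6 later arrays, and the change of 0.25 ± 0.10, adjusted p = 0.0673, did not pass. The Ecpas, Usp14 and Uchl5 calls at 24 h minus 0 h held in all 17 settings, and the Ube3c call ended without replicate 2 at 0 h (0.129) or replicate 1 at 24 h (0.107).

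Regulators of proteasome genes gave 1 of 7 higher at 24 h than at 0 h, a share near the 17.1% of all tested, and 0 lower. Nfe2l1 had 875 and 887 units at 0 h, 948 and 793 at 6 h, 862 and 834 at 12 h, and 1011 and 980.5 at 24 h. The 24 h arrays were the highest of the 8, but the change of 0.17 ± 0.11, adjusted p = 0.271, did not pass. Nfe2l2, which drives the response to oxidative stress, had 1389.5 and 1425 units at 0 h, 1993 and 2190.3 at 6 h, 2539 and 2953 at 12 h, and 3763 and 3497 at 24 h. Each time stood above the one before with no overlap, with log2 changes of 0.56 ± 0.10, adjusted p = 0.00446, at 6 h, 0.95 ± 0.10, adjusted p = 0.000138, at 12 h and 1.35 ± 0.10, adjusted p = 5.91e-06, at 24 h, each minus 0 h. The 6 h call ended without replicate 1 at 0 h (0.0515). Maff, a small partner of both, had 159 and 141 units at 0 h, 151 and 119.8 at 6 h, 58.2 and 77.1 at 12 h, and 113 and 95.1 at 24 h. It was lowest at 12 h, at -0.95 ± 0.22, adjusted p = 0.00985, against 0 h, a call that ended without replicate 1 at 0 h (0.0849) or replicate 1 at 12 h (0.055), and at 24 h the change was -0.45 ± 0.22, adjusted p = 0.142.

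Of 10 genes for shuttles and for the p97 segregase, 2 were higher at 24 h than at 0 h (Vcp and Ubqln2) and 5 lower (Nploc4, Ubqln4, Ufd1, Rad23b and Nsfl1c), and the share that was higher is near that of all tested probe sets. Vcp, which encodes p97 itself, had 5694 and 5786 units at 0 h, 5531 and 5666 at 6 h, 6584 and 7090.1 at 12 h, and 8311 and 7664 at 24 h. Both 24 h arrays were the highest, and the change at 24 h minus 0 h was 0.47 ± 0.09, adjusted p = 0.0021. Nploc4, a cofactor of p97, had 1345 and 1416 units at 0 h, 766 and 886 at 6 h, 869.7 and 926 at 12 h, and 926 and 849 at 24 h. Its arrays dropped by 6 h and stayed down, with a change of -0.63 ± 0.11, adjusted p = 0.00144, at 24 h minus 0 h. The Ubqln2 call ended when any of the 0 h or 24 h arrays was left out (adjusted p from 0.0747 to 0.262) and with arrays centred on their medians (0.199). The Ubqln4, Ufd1 and Rad23b calls ended without some of them (adjusted p from 0.0508 to 0.209), and the Nsfl1c, Vcp and Nploc4 calls held in all 17 settings.

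**Figure D5:**
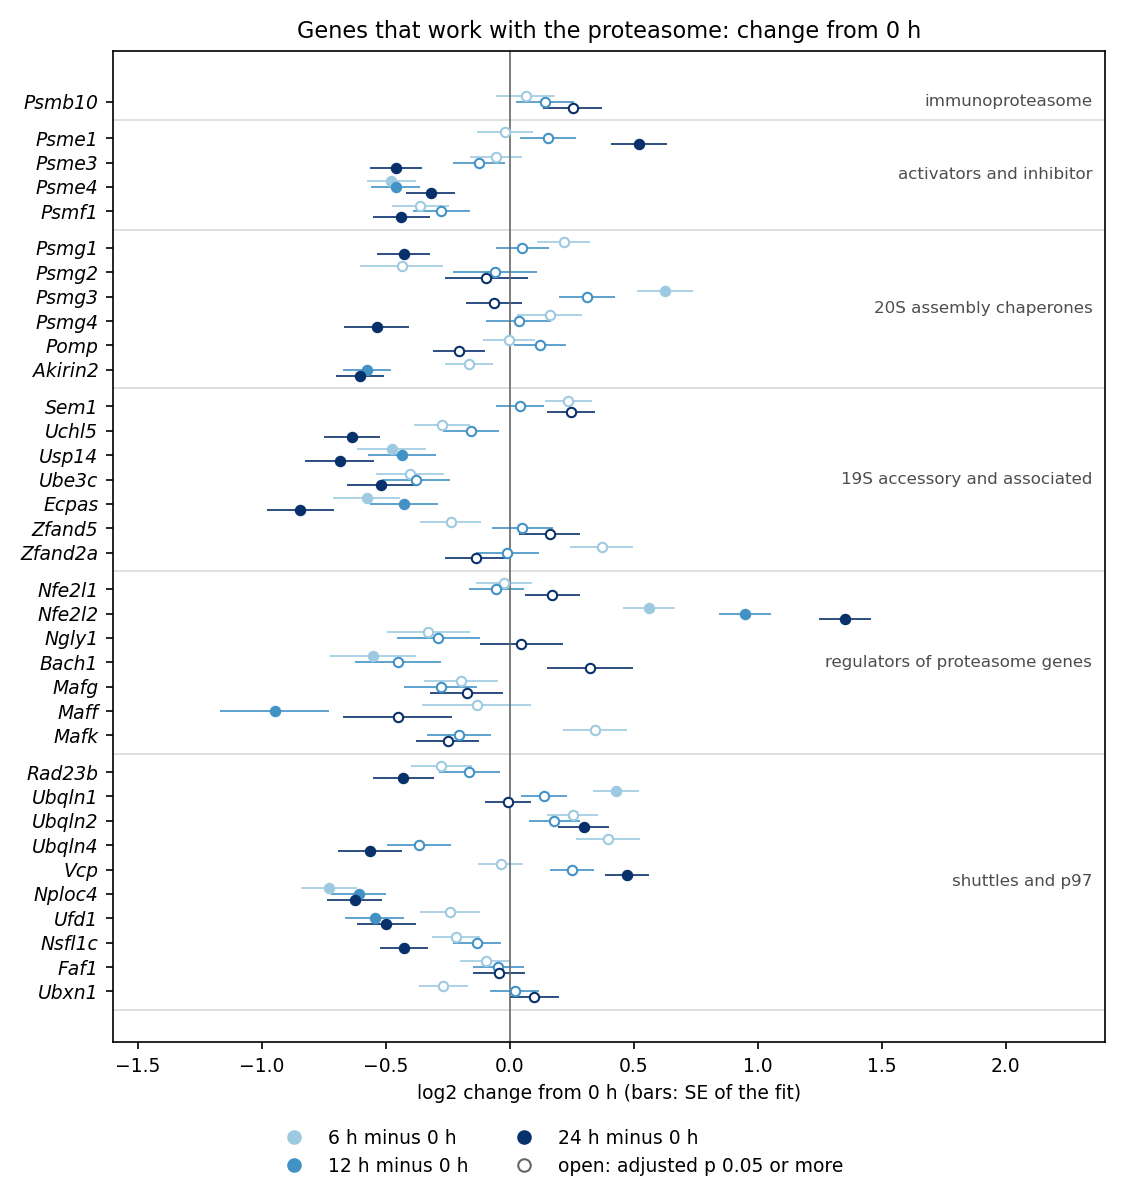
Log2 change at 6, 12 and 24 h minus 0 h of the tested genes related to the proteasome, grouped by list, with bars for 1 standard error of the fit and open points where the adjusted p was 0.05 or more. At 24 h Nfe2l2 lies furthest right of 0 and Ecpas furthest left.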

How the data were processed

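Total RNA (5 µg per array) of TTE3 cells was labelled by one-cycle in vitro transcription and hybridised to Affymetrix 430A arrays, per the labels' protocols, with 1 sample per array and 8 arrays. The values the authors deposited are linear intensities, 1 per probe set; the software that made them is not given in the sources used here, and no detection calls were used. Equal trimmed means on all arrays hide any change in total mRNA per cell. Of 22626 probe sets left after 64 controls, 20380 carried 1 gene symbol on the platform list, 691 carried more than 1, and 1555 have no name here; symbols were updated through a RefSeq table of GRCm38.p6.

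Values were log2(intensity + 21.9), the offset being the 20th percentile, so log2 changes of dim genes are understated, and a fold is 2 to the power of the change. Probe sets with a mean log2 below the 40th percentile (6.58) were left out, and 13576 were tested. All 8 arrays entered 1 limma 3.58.1 model in R 4.3.3 (times as 4 groups, eBayes with trend, 4 residual and 7.22 prior degrees of freedom); contrasts were 2-sided, with Benjamini-Hochberg adjusted p below 0.05 as the call, and values after ± are standard errors. The code was tested on simulated data. Each gene was represented by its brightest probe set. Values on every array are given for the genes with the highest and lowest change of each group at each time against 0 h, for genes whose probe sets were called in opposite directions, for the catalytic subunits, for Nfe2l1 and Pomp and for the extremes of related lists at 24 h. Other genes were named where a count was small or calls were listed. The members, lists and rules were chosen with earlier results of these data known. Precision is limited by 2 arrays per time. Alternatives were quantile normalization, median centring, an offset of 50, a floor in place of the offset, no filter, a filter at the 60th percentile, no variance trend, only the times compared, the replicate number as a block, and each array left out in turn.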

Additional observations from a re-analysis of the deposited data

How the results depend on the processing

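The fall at 24 h minus 0 h (39 probe sets lower, 27 genes) was the most stable result: no other scaling, offset, filter or variance setting moved the probe set count by over 1.5 times, and 19 of 27 gene calls held in all 17 settings, against 4 of 13 at 12 h and 1 of 6 at 6 h, each minus 0 h. With each array left out in turn, the probe sets called over time numbered 25 to 44 (40 with all arrays). Those lower numbered 2 to 9 at 6 h minus 0 h (10 with all arrays), 6 to 23 at 12 h minus 0 h (18), 29 to 42 at 24 h minus 0 h (39), 0 to 6 at 12 h minus 6 h (1), 0 to 20 at 24 h minus 12 h (10) and 13 to 29 at 24 h minus 6 h (29). Those higher numbered 0 to 2 at 6 h minus 0 h and 0 to 1 at 12 h minus 0 h, 12 h minus 6 h, 24 h minus 12 h and 24 h minus 6 h. Without the variance trend, 4 were lower at 6 h minus 0 h, 8 at 12 h minus 0 h, and 0 at 12 h minus 6 h and at 24 h minus 12 h, with 0 higher at 24 h minus 6 h. With no filter, 0 were lower at 12 h minus 6 h, 4 at 24 h minus 12 h, and 0 higher at 24 h minus 6 h. Median centring left 0 higher at 12 h minus 0 h and at 24 h minus 6 h. The stricter filter gave 1 higher at 12 h minus 6 h. With only the times compared, 0 were lower at 12 h minus 6 h, 1 was higher at 24 h minus 12 h and 0 were higher at 24 h minus 6 h. The causes were not tested.

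With the replicate number as a block, 40 probe sets were lower at 24 h minus 0 h, 2 were lower and 1 was higher at 12 h minus 6 h, and no other count moved by over 1.5 times. Same-numbered arrays of different times deviated together with correlations of only 0.0496 to 0.18, so the numbers were not taken to pair the samples.

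Signs turned only for changes that did not pass. Median centring gave -0.049 for Psmc3 and -0.016 for Sem1 at 12 h minus 0 h, and quantile normalization gave 0.0089 for Nfe2l1 and 0.023 for Psme1 at 6 h minus 0 h. With each array left out in turn, log2 changes at 6 h minus 0 h ran between -0.28 and 0.011 for Maff, -0.15 and 0.10 for Nfe2l1, -0.082 and 0.079 for Pomp, -0.11 and 0.18 for Psma1, -0.064 and 0.23 for Psma4, -0.48 and 0.11 for Psma5, -0.015 and 0.14 for Psmb10, -0.12 and 0.082 for Psmb6, -0.032 and 0.25 for Psmc3, -0.12 and 0.11 for Psmd2, -0.048 and 0.35 for Psmd6, -0.32 and 0.075 for its second probe set, -0.054 and 0.017 for Psme1, and -0.11 and 0.0020 for Psme3. At 12 h minus 0 h they ran between -0.45 and 0.16 for Psma1, -0.17 and 0.055 for Psma4, -0.089 and 0.11 for Psmc3, -0.030 and 0.20 for Psmd2, -0.035 and 0.45 for Psmd5, -0.042 and 0.13 for Sem1, and -0.070 and 0.29 for the fourth probe set of Psmd11. At 24 h minus 0 h they ran between -0.42 and 0.070 for Psmd5 and -0.16 and 0.059 for that probe set of Psmd11. Signal over background limits the dim probe sets, and 2 arrays per time limit steps as small as those between neighbouring times.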
